A study of Saccharomyces cerevisiae with 6 samples.

Results

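Internal transcribed spacer 2 (ITS2) is the stretch of the yeast ribosomal DNA (rDNA) between the 5.8S and 25S rRNA genes. Its members here were the 232 positions that the deposited tables assign to ITS2, out of 6858 positions in all. They run from position 3020 to position 3251 of the transcribed unit, which is chrXII:464319-464550 on the minus strand of build R64, the interval that RefSeq annotates as ITS2-2 (YNCL0022C). ITS2 is transcribed as part of the rRNA precursor, is not part of any mature rRNA, and holds no coding sequence. The occupancy of RNA polymerase I (Pol I) comes from NET-seq (native elongating transcript sequencing), which maps the 3′ ends of the RNA that copurifies with the polymerase, in Saccharomyces cerevisiae grown at 30 °C with nutation. The groups were 2 WT libraries, 2 libraries of cdc73△ cells, which lack CDC73, and 2 libraries of paf1△ cells, which lack PAF1. The plots call them cdc73 deletion and paf1 deletion. No allele or treatment shared by all groups, and no strain background, is given in the sources used here. The labels do not say whether the 2 libraries of a genotype came from separate cultures. The spread between these libraries, on which every limma p-value below rests, may therefore be technical. Each main limma fit pools this spread over both genotypes compared, without weights for depth. The exact permutation p-values use the values of the same libraries and measure no spread.

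Paf1 and Cdc73 are subunits of the Paf1 complex, which travels with elongating RNA polymerases. Pol I transcribes the rDNA into a single precursor, from which the external spacers (5′ ETS and 3′ ETS) and internal spacers (ITS1 and ITS2) are removed. ITS2 RNA folds into helices on which assembly factors of the large ribosomal subunit gather. The endonuclease Las1 cuts it at the C2 site, after which exonucleases trim the part left on 5.8S from its 3′ end and the part left on 25S from its 5′ end. A NET-seq signal counts RNA 3′ ends at a base, and the tables do not separate the 3′ end of an RNA still held in the active site from that of a cut or trimmed RNA. The C2 site is not annotated in the sources used here and was not assigned to a base.

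The sequence of ITS2 as the deposited tables give it, written as RNA from 5′ to 3′, is shown once per genotype because the bases with the highest signal differed between genotypes. Capitals mark the 23 positions with the highest mean signal outside the first 10 nucleotides (nt). Those first 10 nt are left in lower case because they were high in every library.
WT: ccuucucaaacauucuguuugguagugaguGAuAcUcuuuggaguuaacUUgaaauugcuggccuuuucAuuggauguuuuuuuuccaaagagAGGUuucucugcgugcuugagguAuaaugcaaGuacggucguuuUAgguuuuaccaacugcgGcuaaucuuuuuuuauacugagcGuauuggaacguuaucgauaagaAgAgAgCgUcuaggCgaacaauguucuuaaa
paf1△: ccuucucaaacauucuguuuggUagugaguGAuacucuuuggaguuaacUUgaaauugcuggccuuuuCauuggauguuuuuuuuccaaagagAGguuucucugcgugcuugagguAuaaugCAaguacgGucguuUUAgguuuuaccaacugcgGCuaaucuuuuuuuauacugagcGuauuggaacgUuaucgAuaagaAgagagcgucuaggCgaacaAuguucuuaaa
cdc73△: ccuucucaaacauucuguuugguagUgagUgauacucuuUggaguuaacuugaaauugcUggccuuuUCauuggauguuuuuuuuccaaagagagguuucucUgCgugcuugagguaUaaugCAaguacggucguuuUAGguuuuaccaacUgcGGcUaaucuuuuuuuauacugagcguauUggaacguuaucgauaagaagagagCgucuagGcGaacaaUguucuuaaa

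Of the 23 marked bases, 13 were common to WT and paf1△, 4 to WT and cdc73△, 6 to paf1△ and cdc73△, and 3 to all 3 genotypes. WT had 9 A and 6 U among its 23 bases, and paf1△ had 8 A and 6 U. The cdc73△ libraries had 2 A and 12 U. ITS2 as a whole holds 56 A, 37 C, 53 G and 86 U, so U makes up 37.1% of it against 28.0% of all positions, and its GC content is 38.8% against 45.0%. In WT the lowest marked base had a mean signal of 59.2 and the next base 55.8, in paf1△ 57.5 and 57.2, and in cdc73△ 65.4 and 63.9, so the choice of 23 falls at no gap in the values.

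The deposited signal is scaled so that positions 1 to 6739 of each library sum to a fixed total. One read was worth 2.08 and 4.43 units in the WT libraries, which held 480708 and 226202 reads, of which 4419 and 2243 lay in ITS2. The cdc73△ libraries held 193279 and 170353 ITS2 reads, and the paf1△ libraries 335508 and 139963 if their smallest value is 1 read. Over all positions the shallowest deletion library, of paf1△, had 14203940 reads on that reading, 29.5 times as many as the deepest WT library. The median read number of an ITS2 position was 10 in WT replicate 1 and 4 in WT replicate 2, where 4 and 20 ITS2 positions were at 0, against 1 in each deletion library. The part of this depth gap in the differences from WT was not tested, whereas paf1△ and cdc73△ were of like depth. The first base of ITS2 and the last 2 bases of 5.8S were listed at 0 in all 6 libraries, as were 3 adjoining positions at the 3′ end of 18S and 3 at that of 25S. Why those positions are at 0 is not given in the sources used here.

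ITS2 held about 1% of the signal in every library, and this share differed little between genotypes. The share was 0.919% and 0.992% in WT, 1.13% and 0.985% in paf1△, and 1.05% and 1.14% in cdc73△. The 95% Wilson intervals of the WT libraries ran from 0.893% to 0.947% and from 0.952% to 1.03%. Replicates therefore differed by more than counting error, and these intervals cover counting error only. Group means were 0.955% ± 0.051 (SD, n = 2) in WT, 1.06% ± 0.103 (SD, n = 2) in paf1△ and 1.09% ± 0.063 (SD, n = 2) in cdc73△. The paf1△ and WT libraries overlapped (exact two-sided permutation p = 0.667). The cdc73△ libraries both lay above WT (exact two-sided permutation p = 0.333). With 2 libraries against 2, 0.333 is the smallest p the exact test can give, it is reached whenever groups do not overlap, and no such comparison can pass 0.05.

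Per nucleotide, ITS2 carried less signal than the rRNA genes on either side of it in all 6 libraries. Its density, the mean signal per nt over that of all positions, was 0.282 ± 0.015 (SD, n = 2) in WT, 0.313 ± 0.030 (SD, n = 2) in paf1△ and 0.323 ± 0.019 (SD, n = 2) in cdc73△. The neighbouring 5.8S had densities of 0.779 in WT, 1.54 in paf1△ and 1.30 in cdc73△, and 25S had 1.14, 1.19 and 1.28. ITS1, the other internal spacer, had a density of 0.250 in WT, 0.183 in paf1△ and 0.159 in cdc73△. The ratio of ITS2 to ITS1 density was 1.12 and 1.14 in the WT libraries, 1.80 and 1.62 in paf1△, and 1.94 and 2.14 in cdc73△, so both deletions lay above WT without overlap (exact two-sided permutation p = 0.333 for each). Of the summed signal of the 4 spacers, ITS2 took 7.80% ± 1.03 (SD, n = 2) in WT, 14.7% ± 1.13 (SD, n = 2) in paf1△ and 18.4% ± 0.325 (SD, n = 2) in cdc73△. The 5′ ETS, the longest spacer, had a density of 0.922 in WT, 0.442 in paf1△ and 0.348 in cdc73△.

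**Figure D1:**
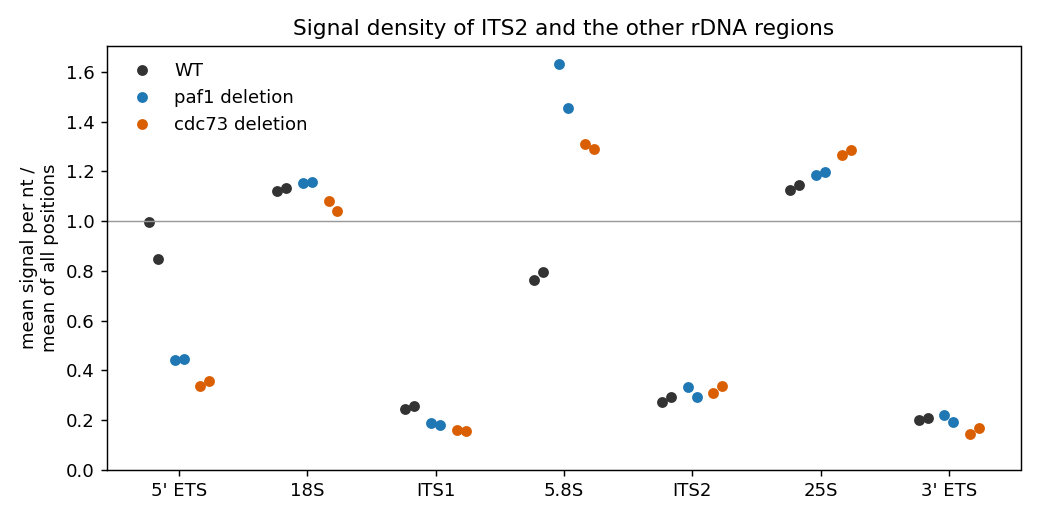
Signal density of the 7 rDNA regions, as mean signal per nt divided by the mean of all positions, with 1 point per library and a line at 1. The ITS2 points of all 3 genotypes lie between 0.272 and 0.336, while 5.8S is higher and the 5′ ETS lower in both deletions than in WT.

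The start of ITS2, next to the mature 3′ end of 5.8S, was its densest stretch in every genotype and was higher on average in both deletions. The first 10 nt held 0.202% and 0.258% of all signal in WT, 0.344% and 0.265% in paf1△, and 0.340% and 0.435% in cdc73△. The lower paf1△ library was thus close to the higher WT library. The junction reads, with ITS2 in capitals:
5.8S to ITS2, chrXII:464541-464560, minus strand: agcgucauuuCCUUCUCAAA
The signal stood on nucleotides 2 to 7 of ITS2 and dropped at nucleotide 8. RNA 3′ ends in the active site and those of cut or trimmed RNA are not separated there. U at nucleotide 6 had a signal of 383 and 518 in WT, 802 and 611 in paf1△, and 757 and 1041 in cdc73△. Every deletion library lay above both WT libraries there, and the log2 difference from WT, on the log2(signal + 10) scale, was 0.64 ± 0.22 (SE) in paf1△ (limma, Benjamini-Hochberg adjusted p = 0.0413) and 0.98 ± 0.22 (SE) in cdc73△ (adjusted p = 0.0105). C at nucleotide 5, the highest ITS2 position of WT on average, had 317 and 597 in WT, 484 and 413 in paf1△, and 567 and 737 in cdc73△. The paf1△ libraries lay between the WT libraries and the cdc73△ libraries overlapped them at that base, which passed in neither comparison with WT (adjusted p = 0.924 for paf1△ and 0.167 for cdc73△). Of the 9 tested positions among the first 10, 4 rose and 0 fell in paf1△ against WT, where 29.2% of all positions rose and 19.4% fell. These rises were at nucleotides 6, 7, 8 and 10, of which 8 and 10 lie at or past the drop. Nucleotides 2 to 5 did not pass in paf1△ (limma adjusted p between 0.0905 and 0.924). In cdc73△, 7 rose and 0 fell, where 29.8% and 29.7% of all positions did.

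The first 10 nt took 22.0% and 26.0% of the ITS2 signal in WT, 30.4% and 26.9% in paf1△, and 32.4% and 38.2% in cdc73△. The groups did not overlap, but the lower paf1△ library exceeded the higher WT library by less than the gap between the WT libraries. Without the first 10 nt, the share of all signal in ITS2 was 0.725% ± 0.012 (SD, n = 2) in WT, 0.753% ± 0.047 (SD, n = 2) in paf1△ and 0.706% ± 0.004 (SD, n = 2) in cdc73△. With the first and last 10 nt both left out, the difference of cdc73△ from WT turned to -0.030 percentage points. The higher ITS2 share of cdc73△ thus lay in the first 10 nt.

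At the other end, the last 10 nt before 25S were sparse. They held 2.63% and 1.74% of the ITS2 signal in WT, 1.90% and 2.10% in paf1△, and 2.98% and 2.82% in cdc73△. The cdc73△ libraries were the higher ones, and those of paf1△ overlapped WT. The junction, with ITS2 in capitals, reads:
ITS2 to 25S, chrXII:464309-464328, minus strand: UGUUCUUAAAguuugaccuc

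**Figure D2:**
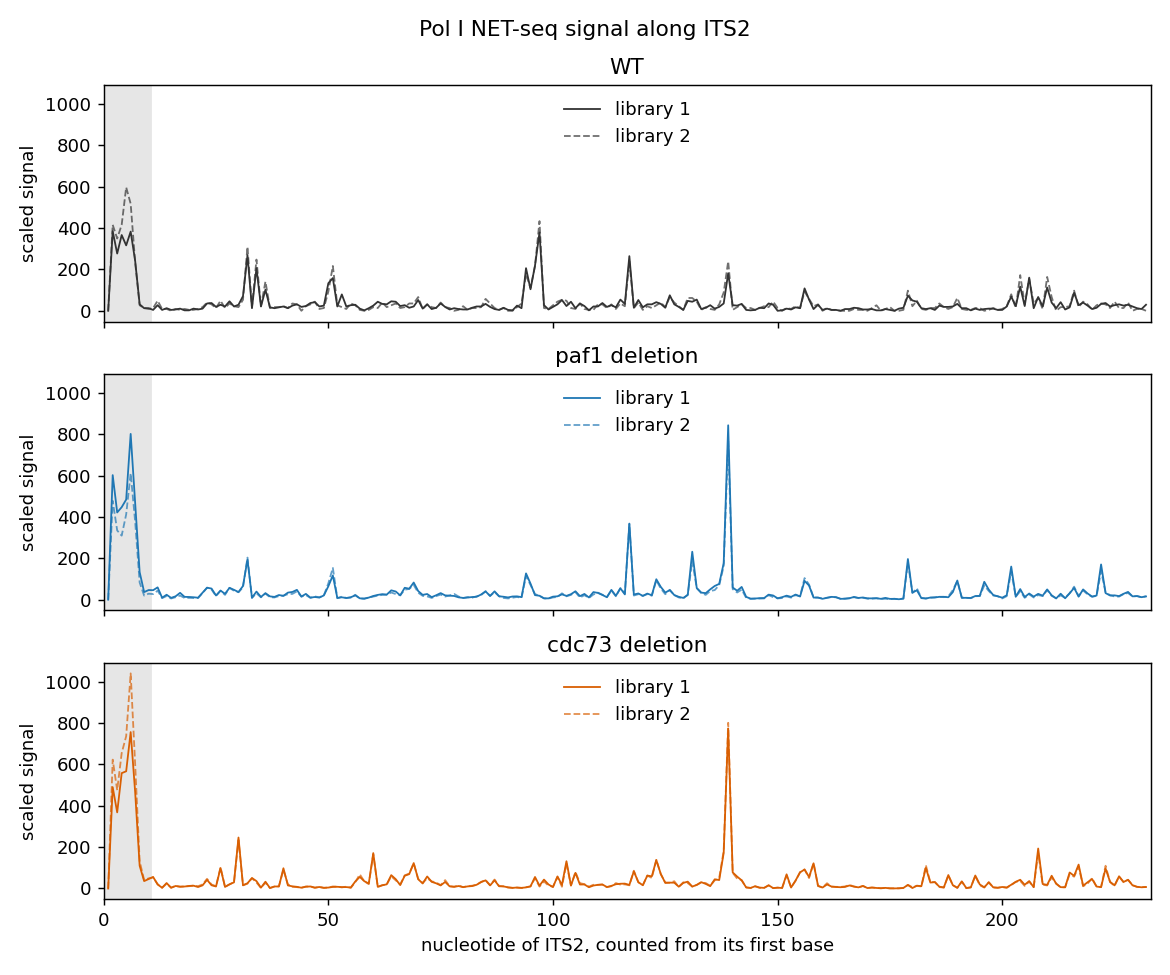
Scaled signal at each of the 232 ITS2 positions by genotype, on a linear axis, with library 1 as a solid and library 2 as a dashed line and the first 10 nt shaded. Nucleotides 2 to 7 are high in all panels, nucleotide 97 reaches 379 and 434 in WT alone, and nucleotide 139 reaches 767 to 844 in the deletions against 181 and 239 in WT.

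Outside the first 10 nt, the signal of both deletions lay further downstream than that of WT. Nucleotides 11 to 116 held 54.7% and 53.7% of the remaining ITS2 signal in WT, 39.2% and 39.3% in paf1△, and 40.8% and 40.9% in cdc73△. The signal-weighted mean position of that part was 114 nt ± 0.495 (SD, n = 2) in WT, 122.0 nt ± 0.11 (SD, n = 2) in paf1△ and 123 nt ± 0.490 (SD, n = 2) in cdc73△. Both deletions lay beyond WT without overlap (exact two-sided permutation p = 0.333 for each). Leaving out only the first 10 nt was chosen after the values were seen. Over the whole of ITS2 the mean position was 88.0 nt in WT, 88.4 nt in paf1△ and 81.5 nt in cdc73△, so the order of cdc73△ and WT turned with the first 10 nt included.

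A pair of single bases stood out in this redistribution, U at nucleotide 97 and A at nucleotide 139. They are shown with 10 nt on each side, the base itself in capitals:
Nucleotide 97, chrXII:464444-464464, minus strand: caaagagaggUuucucugcgu
Nucleotide 139, chrXII:464402-464422, minus strand: cggucguuuuAgguuuuacca
U at nucleotide 97 (position 3116, coordinate 464454) had a signal of 379 and 434 in WT, from 182 and 98 reads. In paf1△ it had 18.7 and 18.2, and in cdc73△ 13.4 and 9.09. It was the highest WT base outside the first 10 nt and was low in all 4 deletion libraries, 22.0 times lower on average in paf1△ (log2 difference -3.87 ± 0.19 SE, limma adjusted p = 4.91e-05) and 36.2 times lower in cdc73△ (-4.30 ± 0.19 SE, limma adjusted p = 9.76e-05).

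A at nucleotide 139 (position 3158, coordinate 464412) had 181 and 239 in WT, from 87 and 54 reads, 844 and 767 in paf1△, and 774 and 802 in cdc73△. It was 3.83 times higher in paf1△ (log2 difference 1.90 ± 0.18 SE, limma adjusted p = 0.00022) and 3.75 times higher in cdc73△ (1.87 ± 0.16 SE, limma adjusted p = 0.000359) than in WT. The deletions overlapped each other there (log2 difference 0.03 ± 0.14 SE, limma adjusted p = 0.869). Whether the RNA 3′ ends at this base were those of RNA in the active site or of cut or trimmed RNA was not tested. This base alone took 2.2% of the ITS2 signal in WT, 7.61% in paf1△ and 7.20% in cdc73△. It directly follows a run of 4 U, nucleotides 135 to 138, whose mean signal was 28.1 in WT, 86.0 in paf1△ and 69.4 in cdc73△. Within that run, U at nucleotide 138 had 35.4 and 88.5 in WT, 176 and 162 in paf1△, and 172 and 183 in cdc73△, so it too was higher in every deletion library.

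Summed over 8 segments of 29 nt, numbered from 5.8S, the signal moved in the same direction in both deletions in the segments that hold these bases. These values are shares of all signal and were tested with limma over 236 segments of the whole table. Against WT, 3 of the 8 segments rose and 3 fell in paf1△ (39.4% and 34.3% of all segments did), and 4 rose and 2 fell in cdc73△ (34.7% and 41.9% of all segments did). Counts out of 8 are too small to set ITS2 apart from these shares. Scaled to equal spacer totals, which adds 0.78 to every log2 difference of paf1△ from WT and 1.05 to that of cdc73△, 5 segments rose and 0 fell in paf1△ and 6 rose and 0 fell in cdc73△. The falls below are therefore falls relative to all signal. Scaled to equal ITS2 totals outside the first 10 nt, they were called in the same numbers as in the main fits.

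Segment 2, nucleotides 30 to 58, held 0.149% and 0.151% of all signal in WT, 0.0924% and 0.0929% in paf1△, and 0.0763% and 0.0740% in cdc73△. Segment 4, nucleotides 88 to 116, which contains nucleotide 97, held 0.147% and 0.145% in WT, 0.0786% and 0.0712% in paf1△, and 0.0671% and 0.0639% in cdc73△. Both segments fell in both deletions, with log2 differences of -0.70 ± 0.09 and -0.97 ± 0.10 (SE) in paf1△ and of -0.996 ± 0.08 and -1.16 ± 0.08 (SE) in cdc73△ (limma adjusted p between 2.1e-05 and 0.00018). Segment 5, nucleotides 117 to 145, which contains nucleotide 139, held 0.117% and 0.119% in WT, 0.255% and 0.229% in paf1△, and 0.194% and 0.197% in cdc73△. It rose in both, by 1.04 ± 0.10 (SE, limma adjusted p = 3.3e-05) in paf1△ and 0.73 ± 0.08 (SE, limma adjusted p = 0.00014) in cdc73△ on the log2 scale. Segment 1, with the 5.8S junction, held 0.233% and 0.292% in WT, 0.402% and 0.314% in paf1△, and 0.381% and 0.478% in cdc73△. It rose by 0.45 ± 0.15 (SE, limma adjusted p = 0.0246) in paf1△ and by 0.71 ± 0.15 (SE, limma adjusted p = 0.0035) in cdc73△, and it had the widest spread between replicates. Without WT replicate 1, or without paf1△ replicate 1, 2 rather than 3 segments rose in paf1△.

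The other segments set the deletions apart. Segment 3 rose in cdc73△, from 0.0646% to 0.106% on average (log2 difference 0.71 ± 0.08 SE, limma adjusted p = 0.00016), and had a mean of 0.0746% in paf1△ (adjusted p = 0.0986 against WT). Segment 6 rose in cdc73△ from 0.0449% to 0.0612% (0.45 ± 0.08 SE, adjusted p = 0.00198) and averaged 0.0435% in paf1△ (adjusted p = 0.654). Segment 7 rose in paf1△ from 0.0551% to 0.0900% (0.71 ± 0.10 SE, adjusted p = 0.000195) and averaged 0.0536% in cdc73△ (adjusted p = 0.672). Segment 8, next to 25S, fell in paf1△ from 0.114% to 0.0825% (-0.47 ± 0.10 SE, adjusted p = 0.00312) and averaged 0.107% in cdc73△ (adjusted p = 0.333). The deletions were also compared directly. Segments 2, 5 and 7 were higher in paf1△ than in cdc73△, by 0.30 ± 0.08, 0.30 ± 0.09 and 0.75 ± 0.08 (SE), and segments 3, 6 and 8 were lower, by -0.51 ± 0.09, -0.49 ± 0.08 and -0.37 ± 0.09 (SE), with limma adjusted p between 0.00219 and 0.0345. These 3 and 3 of 8 stood against 31.8% and 18.6% of all segments. Scaling to equal spacer totals or to equal ITS2 totals outside the first 10 nt left 1 higher and 4 lower. Without cdc73△ replicate 2, 1 was higher and 3 lower, and without paf1△ replicate 2, 2 and 2. Without cdc73△ replicate 1 or paf1△ replicate 1, 2 were higher and 4 lower.

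**Figure D3:**
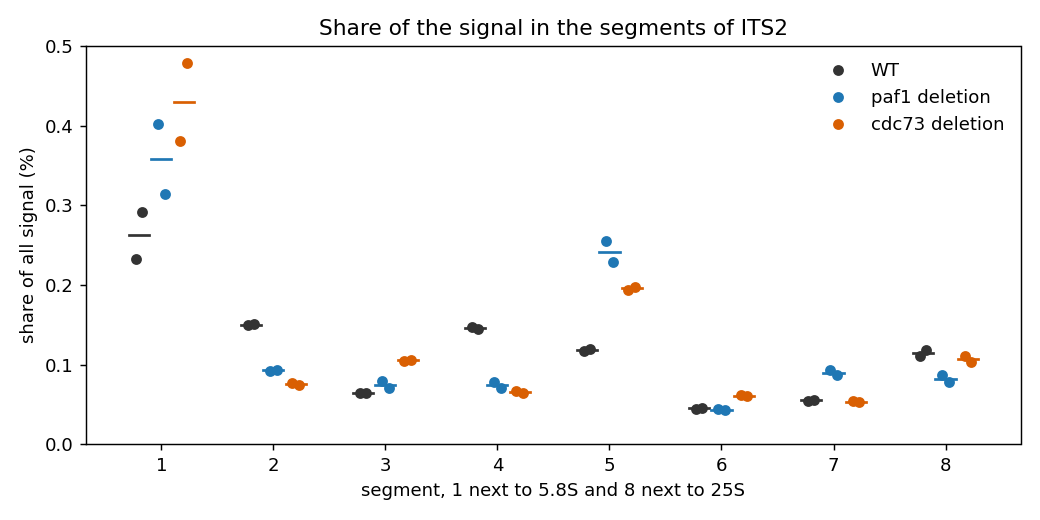
Share of all signal in each of the 8 segments of 29 nt, with 1 point per library and a bar at the mean of each genotype, on an axis that starts at 0. On this scale segments 2 and 4 are lower and segment 5 is higher in both deletions than in WT, segment 7 is highest in paf1△, and segments 3 and 6 are highest in cdc73△. With equal spacer totals no segment was called lower than WT.

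Base by base, paf1△ differed from WT at a smaller share of ITS2 positions than of all positions. Of 231 tested positions, 42 rose and 26 fell, or 18.2% and 11.3%, against 29.2% and 19.4% of all tested positions. The median log2 difference was 0.12 in ITS2 and 0.17 over all positions, and the median of its size was 0.43 in ITS2 and 0.58 overall. The median ITS2 position had a signal of 20.8 and 17.7 in WT, against 85.4 and 88.5 over all positions, and the part of this lower level in the smaller share was not tested. The count depended on the libraries, with 9 positions called without paf1△ replicate 1, 15 without paf1△ replicate 2, 133 without WT replicate 1 and 127 without WT replicate 2. Each fit without 1 library takes its spread only from the genotype that keeps 2 libraries. With equal medians, which changes the signal of paf1△ over WT by -0.22 on the log2 scale and low positions by less because of the added 10, 31 rose and 37 fell. With equal spacer totals 118 rose and 10 fell, so the balance of rises and falls depends on the scaling, while the named falls below are all larger than 0.78, the most that this scaling adds.

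The rises of paf1△ at the named bases fell on A, G and U. The largest was at A of nucleotide 196 (position 3215), with 8.33 and 0 in WT, 86.3 and 68.6 in paf1△, and 5.64 and 4.61 in cdc73△ (log2 difference from WT 2.68 ± 0.32 SE, limma adjusted p = 0.000498). The WT values there rest on 4 and 0 reads, while the base was low in the deep cdc73△ libraries too. A at nucleotide 222 had 33.3 and 35.4 in WT, 170.3 and 139 in paf1△, and 6.57 and 7.29 in cdc73△. G at nucleotide 131 had 43.7 and 62.0 in WT, 232 and 187 in paf1△, and 9.12 and 9.36 in cdc73△. At all 3 of these bases paf1△ was the highest genotype and its libraries overlapped no other. The remaining named rises were nucleotide 139, above, and U at nucleotide 136, with 10.4 and 4.43 in WT, 66.0 and 46.1 in paf1△, and 44.3 and 39.2 in cdc73△.

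The named falls of paf1△ lay next to each other at nucleotides 96 and 97, close together at nucleotides 34 and 36, and at nucleotide 206. G at nucleotide 96, next to the high WT base, had 219 and 217 in WT, 21.8 and 26.9 in paf1△, and 55.6 and 49.5 in cdc73△ (paf1△ against WT -2.73 ± 0.21 SE, limma adjusted p = 9.24e-05). A at nucleotide 34 had 206 and 248 in WT, 38.9 and 30.7 in paf1△, and 35.7 and 29 in cdc73△. A at nucleotide 206 had 160 and 155 in WT, 29.6 and 25.5 in paf1△, and 35.8 and 33.1 in cdc73△. At these bases both deletions were below WT without overlap, and at nucleotide 96 paf1△ was lower than cdc73△ as well (log2 difference -0.87 ± 0.14 SE, limma adjusted p = 0.000542). U at nucleotide 36 likewise had 102 and 142 in WT, 31.4 and 29.2 in paf1△, and 32.8 and 27.9 in cdc73△.

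The cdc73△ libraries differed from WT at more ITS2 positions. Of 231 tested, 69 rose and 62 fell, or 29.9% and 26.8%, against 29.8% and 29.7% of all tested positions, so ITS2 stood near the background. The median log2 difference was 0.06 in ITS2 and the median of its size 0.71, against 0.70 for all positions. Recovered whole reads gave 67 higher and 67 lower with edgeR and 50 higher and 65 lower with DESeq2. Without cdc73△ replicate 1 the limma fit called 58 positions, and without cdc73△ replicate 2 it called 47. With equal spacer totals 123 rose and 39 fell, while equal medians gave 68 and 66.

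Of the 5 largest rises of cdc73△, 4 were at a C or U followed by G. The first pair is shown with 10 nt on each side, the base in capitals:
Nucleotide 30, chrXII:464511-464531, minus strand: ugguagugagUgauacucuuu
Nucleotide 183, chrXII:464358-464378, minus strand: cugagcguauUggaacguuau
U at nucleotide 30 (position 3049) had 29.2 and 17.7 in WT, 36.6 and 35.8 in paf1△, and 247 and 235 in cdc73△ (log2 difference from WT 2.93 ± 0.21 SE, limma adjusted p = 0.000221). U at nucleotide 183 (position 3202) had 8.33 and 4.43 in WT, 5.16 and 6.13 in paf1△, and 99.7 and 112 in cdc73△ (2.83 ± 0.21 SE, limma adjusted p = 0.000222). Both bases were high in cdc73△ and low in the other 4 libraries. U at nucleotide 60 did the same, with 25 and 17.7 in WT, 17.6 and 14.9 in paf1△, and 171 and 166 in cdc73△. C at nucleotide 105 had 12.5 and 8.85 in WT, 40.4 and 36.8 in paf1△, and 75.7 and 80.2 in cdc73△. The exception in sequence was U at nucleotide 158, which is followed by A and had 8.33 and 22.1 in WT, 9.95 and 11.1 in paf1△, and 122 and 123 in cdc73△. WT values at these 5 bases rest on 1 to 14 reads each.

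The largest falls of cdc73△ besides nucleotide 97 were at bases where paf1△ lay well above cdc73△. The clearest is A at nucleotide 117, shown with 10 nt on each side:
Nucleotide 117, chrXII:464424-464444, minus strand: ugcuugagguAuaaugcaagu
It had 264 and 239 in WT, 368 and 366 in paf1△, and 17.3 and 15.3 in cdc73△, 15.5 times lower than WT on average (log2 difference -3.32 ± 0.17 SE, limma adjusted p = 0.000113). A at nucleotide 32 had 269 and 310 in WT, 194 and 203 in paf1△, and 25.3 and 23.2 in cdc73△. A at nucleotide 94 had 206 and 177 in WT, 127 and 115 in paf1△, and 5.26 and 6.62 in cdc73△. At these 3 A both cdc73△ libraries were more than 10 times below WT. U at nucleotide 51 had 158 and 217 in WT, 117 and 154 in paf1△, and 7.54 and 9.82 in cdc73△. In paf1△ the A at nucleotides 94 and 32 also fell against WT, by less (log2 differences -0.62 ± 0.17 and -0.52 ± 0.16 SE, limma adjusted p = 0.0204 and 0.0303).

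**Figure D4:**
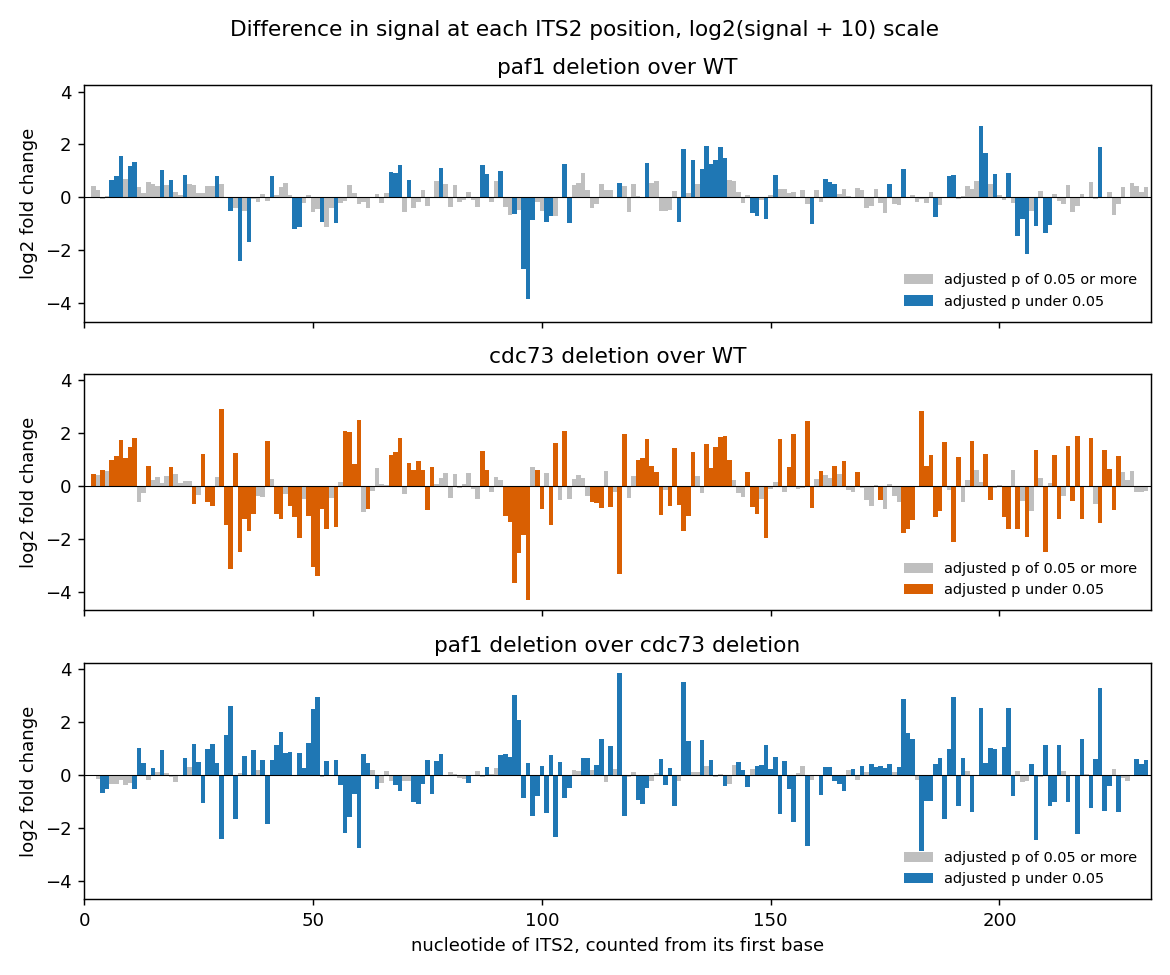
Log2 difference in signal at each tested ITS2 position, on the log2(signal + 10) scale, for the 3 comparisons, with bars in colour where the limma adjusted p was under 0.05 and grey elsewhere. The fall at nucleotide 97 (-3.87 and -4.30) and the rise at nucleotide 139 (1.90 and 1.87) appear in both deletions against WT, and the fall at nucleotide 117 in cdc73△ stands opposite the rise of paf1△ over cdc73△ (3.84). With equal spacer totals the bars of the upper panel would rise by at most 0.78 and those of the middle panel by at most 1.05, and low positions by less.

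The 2 deletions differed from each other over much of ITS2. Of 231 positions tested, 95 were higher and 59 lower in paf1△ than in cdc73△, or 41.1% and 25.5%, against 35.4% and 20.8% of all tested positions. The median log2 difference was 0.12 in ITS2 and 0.13 over all positions, and the median of its size 0.47 and 0.42. Equal medians gave 80 higher and 80 lower and equal spacer totals 79 and 82, and a fit over all 6 libraries called 100 positions, 57 higher and 43 lower. The largest difference was at nucleotide 117 (log2 difference 3.84 ± 0.14 SE, limma adjusted p = 7.52e-08), followed by nucleotide 131 (3.5 ± 0.15 SE), nucleotide 222 (3.27 ± 0.15 SE), nucleotide 94 (3.04 ± 0.13 SE) and U at nucleotide 190 (2.96 ± 0.12 SE). At nucleotide 190 the signal was 33.3 and 62.0 in WT, 92.5 and 89.7 in paf1△, and 3.31 and 2.74 in cdc73△. In the other direction the named bases were nucleotides 183, 60, 158 and 30, given above, and C at nucleotide 208, with 66.6 and 62.0 in WT, 28.0 and 22.0 in paf1△, and 193 and 170.4 in cdc73△ (log2 difference of paf1△ from cdc73△ -2.46 ± 0.15 SE, limma adjusted p = 9.82e-07).

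Among the 56 A of ITS2, 37 were higher in paf1△ than in cdc73△ and 0 were lower at limma adjusted p under 0.05. Among the 86 U, 20 were higher and 31 lower, against 35.4% and 20.8% of all positions. Against WT, cdc73△ rose at 7 and fell at 28 of the 56 A, with a median log2 difference of -0.68, and rose at 35 and fell at 13 of the 86 U, with a median of 0.43. Over all positions 29.8% rose and 29.7% fell in cdc73△. In paf1△, 10 A rose and 11 fell against WT, with a median of 0.09, while 9 and 4 C, 9 and 5 G, and 14 and 6 U did, against 29.2% and 19.4% of all positions. A was thus the one base with more falls than rises in paf1△, by 1 position, and its share of falls was near that of all positions.

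Relative occupancy, the mean signal of a class of bases over the mean of all ITS2 positions, set cdc73△ apart at A per library. At A it was 1.17 and 1.12 in WT, 1.20 and 1.22 in paf1△, and 0.656 and 0.612 in cdc73△. Both cdc73△ libraries lay below the other 4, with a difference from WT of -0.51 and of paf1△ from cdc73△ of 0.57, and the paf1△ libraries lay above WT by 0.07 on average (exact two-sided permutation p = 0.333 for each of the 3 comparisons). Without the first 10 nt the values at A were 1.49 ± 0.012, 1.62 ± 0.009 and 0.869 ± 0.001 (SD, n = 2) in WT, paf1△ and cdc73△. On the same 222 positions, relative occupancy at C was 0.686 in WT, 0.779 in paf1△ and 1.23 in cdc73△. At U it was 0.898, 0.761 and 1.14 in the same order, and at G 0.867, 0.895 and 0.769. The share of this signal at A was 35.5% in WT, 38.6% in paf1△ and 20.8% in cdc73△, and at U 33.6%, 28.5% and 42.6%.

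Relative occupancy also differed by the base that follows the RNA 3′ end, which is the next to be added. Outside the first 10 nt, relative occupancy before G was 1.17 for WT, 1.32 for paf1△ and 1.84 for cdc73△, and before U 1.07, 1.09 and 0.574. Before C it was 1.08, 0.647 and 0.778, with paf1△ the furthest from WT, and before A 0.667, 0.736 and 0.947. The 32 positions before C include the named falls at nucleotides 34 and 36. Their mean signal was 227 and 122 in WT and 34.8 and 30.3 in paf1△, so the class value leans on these bases. For the 27 positions with C or U before G, a class chosen after the values were seen, relative occupancy was 0.869 and 0.877 in WT, 0.734 and 0.787 in paf1△, and 2.15 and 2.14 in cdc73△. Against WT, 19 of these 27 rose and 4 fell in cdc73△, beside 29.8% and 29.7% of all positions. In paf1△, 2 rose and 1 fell, beside 29.2% and 19.4%. Of the 27, 10 match the elemental pause motif known from bacterial RNA polymerase, with G at -10, C or U at -1 (the RNA 3′ base) and G at +1, read on the transcribed strand only. Such matches make up 4.31% of ITS2 positions and 3.41% of all positions. Their relative occupancy was 1.35 and 1.47 in WT, 1.14 and 1.38 in paf1△, and 2.74 and 2.75 in cdc73△.

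The direction of cdc73△ from WT at A and at C or U before G was not particular to ITS2. At C or U before G, relative occupancy in the other spacers was 0.833 for WT, 0.892 for paf1△ and 2.35 for cdc73△, and in 25S 0.951, 0.951 and 1.16. At A the other spacers had 1.32, 1.24 and 0.557. At C and at U cdc73△ was likewise above WT both there and in ITS2. At G the other spacers had 1.04, 1.27 and 1.24, so cdc73△ was above WT there and below it in ITS2. The paf1△ means at A and at C (0.928 in WT and 0.794 in paf1△) were below WT in the other spacers and above it in ITS2. At A and at C or U before G, the cdc73△ values lay further from WT in ITS2 and the other spacers than in 25S. That difference was not tested.

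**Figure D5:**
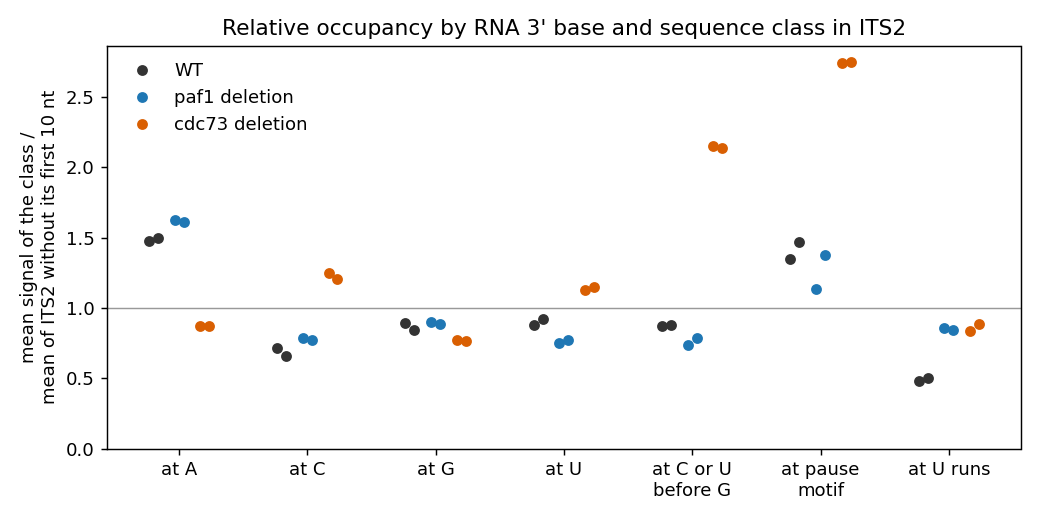
Relative occupancy of nucleotides 11 to 232 by RNA 3′ base and sequence class, as the mean signal of the class over the mean of those nucleotides, with 1 point per library and a line at 1. The cdc73△ points lie below the other genotypes at A (0.868 and 0.870) and above them at C or U before G (2.15 and 2.14), and the WT points are lowest at U runs (0.482 and 0.505).

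ITS2 holds 5 homopolymer runs of 4 or more equal bases, all of U, with 27 positions in total. Outside the first 10 nt their relative occupancy was 0.482 and 0.505 in WT, 0.856 and 0.844 in paf1△, and 0.833 and 0.883 in cdc73△. Of the 27, 9 rose and 0 fell in each deletion against WT. Of all positions, 29.2% rose and 19.4% fell in paf1△, and 29.8% rose and 29.7% fell in cdc73△. The share of run positions that rose is thus near the background, and the share that fell is below it. The longest run, of 8 U, had a mean signal of 16.0 in WT, 18 in paf1△ and 17.6 in cdc73△. The run of 7 U had 5.45, 8.11 and 9.42. Among the runs of 4 U, the one at positions 3084 to 3087 had 26.3, 39.7 and 48.5. That at positions 3161 to 3164 had 13.2, 18.9 and 14.5, and the one before nucleotide 139 had 28.1, 86.0 and 69.4. The run before nucleotide 139 was thus the one with the widest gap between WT and the deletions. It added more to the higher class values of both deletions than any other run.

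A pause was counted where a position exceeded the mean + 3 SD of the 50 nt on each side in both libraries of a genotype. The rule finds local peaks of RNA 3′ ends. It does not separate RNA held in the active site from cut or trimmed RNA, so a pause here need not be a paused polymerase. WT had 3 pauses in ITS2, paf1△ 2 and cdc73△ 3, or 1.29%, 0.862% and 1.29% of its positions, against 1.90%, 1.66% and 1.97% of all positions. None was common to all 3 genotypes. Nucleotide 117 was a pause in WT and paf1△, and nucleotide 139 in paf1△ and cdc73△. Nucleotides 96 and 97 were pauses in WT, and nucleotides 60 and 208 in cdc73△, each in no other genotype by this rule.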

How the data were processed

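Each of the 3 tables deposited by the authors gives, for 1 pair of genotypes, the signal per rDNA position, which is a read number scaled so that positions 1 to 6739 sum to the same total, as the values show. Per the submitters' processing notes, the tools include STAR 2.7.1a, cutadapt 3.4 and bedtools 2.28.0, and the build was R64. Per the labels' protocols, linkers carried molecular identifiers. How these were used and how reads were placed among rDNA repeats is not given in the sources used here.

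Values were within 0.1 of a whole number of reads at all WT positions and at 99.9% and 100.0% of cdc73△ positions, so a count test was added for that pair. The paf1△ columns gave 99.9% and 100.0% too, but held too few low values for the rule used to recover reads, and had no count test. Positions above 0 in at least 2 of 4 libraries went into limma 3.58.1 (R 4.3.3), with lmFit and a trended eBayes on log2(signal + 10), without a block, and p-values were adjusted by Benjamini-Hochberg over all positions. This scale understates changes of low positions. Segments of 29 nt were tested as log2 shares without trend. Both fits were also run on simulated data with a fixed spread between libraries that was not estimated from these libraries. The error rate of the calls given here was therefore not tested. edgeR 4.0.16 and DESeq2 1.42.0 ran on recovered reads. Other steps used Python 3.11.15 with scipy 1.17.1. Rank correlations across positions are not reported here.

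Named positions are, per comparison, the 5 largest rises and falls with adjusted p under 0.05, groups that do not overlap and a mean signal at or above the median of tested ITS2 positions, and the 5 highest positions of each genotype, of which the text gives values for those it turns on. The members, classes and tests were chosen with earlier results of these data known.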

Additional observations from a re-analysis of the deposited data

How the results depend on the processing

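Shares of a fixed total rise where others fall, total Pol I occupancy was not measured, and WT had 10 and 4 reads at a median ITS2 position, so low WT positions are the least certain. Of 131 alternatives run, 116 kept the direction and the side of the threshold or, for counts, stayed within 1.5 times the main count. For shares, mean positions and relative occupancy only the direction could change, because the exact test cannot pass the threshold with so few libraries. For counts only the total was compared, so the 116 do not show that the balance of rises and falls was kept. For paf1△ against WT, 42 positions rose and 26 fell, against 31 and 37 with equal medians and 40 and 27 with the replicate block. The count of positions called for paf1△ against WT was 68, rose to 128 with equal spacer totals and ranged from 9 to 133 when 1 library was left out. For cdc73△ against WT it was 131 and ranged from 47 to 188 without 1 library. For paf1△ against cdc73△ it was 154, 100 in 1 fit over all 6 libraries and 126 to 159 without 1 library. With the replicate number as a block, 67, 135 and 152 positions were called in the 3 comparisons, and 6, 6 and 4 segments (1 higher and 3 lower in the last) against 6 in each without it. Same-numbered libraries deviated together with correlations of 0.083, 0.0056 and -0.224, and no label says that the numbers pair the libraries. With the first and last 10 nt left out, the ITS2 share of cdc73△ minus WT turned from 0.138 to -0.030 percentage points, that of paf1△ minus cdc73△ from -0.035 to 0.058, and the mean position of cdc73△ minus WT from -6.52 to 7.42 nt. Without 1 library, the share of paf1△ minus cdc73△ ranged from -0.108 to 0.037 percentage points and the mean position of paf1△ minus WT from -1.73 to 2.44 nt. A limma fit of 1 pair of genotypes without 1 library takes its spread only from the genotype that keeps 2 libraries. Apart from that and the change in samples or positions that each setting makes, the cause was not tested. Scaling to equal ITS2 totals outside the first 10 nt was added after the values were seen and changed none of the 6 totals by more than 1.5 times, but left 1 rather than 3 segments higher in paf1△ than in cdc73△.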
